A study of Homo sapiens with 12 samples.

Results

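A set of 42 genes of synaptic vesicle release, axonal transport, growth cones and neuronal RNA binding was followed across 12 mRNA-seq libraries of cultured human neuroblastoma cells. The members were given as symbols, and all 42 were matched to an Ensembl identifier among the 61552 genes of the deposited count table. They were selected on a difference already seen between the controls of the 2 line labels, in which CPLX2, ATCAY, KIF1A and NSG2 stood out. The members' levels between the labels are therefore described without a test, and for the members only the responses to ML210 are tested. A filter on low counts kept 20304 genes for testing, and 40 members passed it. SYN3 and SV2B did not pass, and SV2C, STMN4 and ATCAY passed through their reads in the libraries labelled SK-N-AS.

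The libraries form 4 groups of 3, from cells labelled SK-N-BE(2) with ML210, SK-N-BE(2) control, SK-N-AS with ML210 and SK-N-AS control. Both are established neuroblastoma lines, recorded as wild type, and the treated cells were kept overnight with ML210, a covalent inhibitor of the lipid peroxidase GPX4 that induces ferroptosis. The dose of ML210 was not given in the sources used here. The design text calls SK-N-BE(2) MYCN-amplified and SK-N-AS not amplified, with 1 line of each kind, so effects of the line and of its MYCN status cannot be told apart. Each group holds 1 library from each of batches 1, 2 and 3, which are also the replicate numbers. Beyond the batch label nothing states separate cultures, and the p-values then reflect only how far these libraries spread, which may be technical. Counted reads ranged from 54047293 to 83481963 per library.

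MYCN goes against the line labels in every library. It stood at 0.154 ± 0.0899 CPM with ML210 and 0.166 ± 0.0727 CPM in controls labelled SK-N-BE(2), against 3855 ± 115 CPM with ML210 and 3558 ± 122 CPM in controls labelled SK-N-AS (SD, n = 3 each). Libraries are therefore called by their label throughout, and a direction between the labels is no statement about which line the cells were. GPX4, the target of ML210, differed by less than the test could call in both labels (log2 -0.08, edgeR adjusted p = 0.667 labelled SK-N-BE(2), and -0.12, edgeR adjusted p = 0.751 labelled SK-N-AS). Since ML210 blocks the protein, the transcript is no check of the treatment. The libraries labelled SK-N-AS of batch 1 stood apart in some genes. PRRX1, a mesenchymal transcription factor, was at 0, 1.17 and 1.37 CPM with ML210 and 0.026, 1.54 and 1.39 CPM in controls labelled SK-N-AS in batches 1, 2 and 3, and PTPRC, the leukocyte phosphatase CD45, was at 0, 1.11 and 2.12 and 0, 1.63 and 1.33 CPM.

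Neurons release transmitter when synaptic vesicles fuse with the plasma membrane. Syntaxin, SNAP-25 and synaptobrevin (the SNARE proteins) join the membranes, complexins clamp and promote the fusion, and synaptotagmins sense the calcium that triggers it. Active zone scaffolds hold vesicles at the release site, kinesins bring vesicle precursors along the axon, and stathmins, doublecortin and GAP-43 act on the growing axon tip. Neuroblastoma arises from the sympathoadrenal lineage of the neural crest, and many of its lines keep part of this neuronal gene set. Outside neurons, many of these genes are silenced by REST, a zinc finger repressor that binds a DNA element called RE1.

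The promoters were searched for the RE1 element because REST itself differed between the labels. REST stood at 31.1, 29.9 and 29 CPM with ML210 and 36, 30.4 and 30.4 CPM in controls labelled SK-N-BE(2), against 0.413, 0.969 and 1.31 CPM with ML210 and 0.65, 0.993 and 1.44 CPM in controls labelled SK-N-AS. All 6 libraries labelled SK-N-BE(2) were above the 6 labelled SK-N-AS, and the controls differed by a log2 of 4.99 (edgeR adjusted p = 6.43e-08). RefSeq promoters on GRCh38.p14, each with 250 bases before and 50 after a gene's start, were found for 30 members, 57 promoters in all. No promoter was searched for CPLX1, SNAP25, SYN3, SYNGR3, RIMS2, ATCAY, KIF5A, NSG2, STMN2, STMN4, ELAVL3 and NRXN2. Some members have several promoters, so the shares are of promoters and not of members. They were read on both strands for TTCAGCACC followed after 2 bases by GGACAG, with at most 3 mismatches over the 15 letters. The match was present in 3 of 57 member promoters (5.26%) and in 467 of all 35116 promoters (1.33%). The 3 are shown here because they carry that match, in capitals. The SYN1 promoter (chrX:47619808-47620107, minus strand) has it with 0 mismatches, starting at base -233 from the gene's start. The SV2C promoter (chr5:76083133-76083432, plus strand) and the UNC13A promoter (chr19:17688305-17688604, minus strand) have it with 3 mismatches each, in UNC13A on the strand opposite to the gene.
SYN1: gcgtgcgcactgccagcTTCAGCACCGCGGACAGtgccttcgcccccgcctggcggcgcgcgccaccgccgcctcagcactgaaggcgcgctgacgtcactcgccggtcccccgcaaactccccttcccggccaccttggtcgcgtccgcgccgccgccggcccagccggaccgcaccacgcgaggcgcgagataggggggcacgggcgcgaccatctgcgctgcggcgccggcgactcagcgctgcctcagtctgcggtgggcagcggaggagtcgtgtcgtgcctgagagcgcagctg
SV2C: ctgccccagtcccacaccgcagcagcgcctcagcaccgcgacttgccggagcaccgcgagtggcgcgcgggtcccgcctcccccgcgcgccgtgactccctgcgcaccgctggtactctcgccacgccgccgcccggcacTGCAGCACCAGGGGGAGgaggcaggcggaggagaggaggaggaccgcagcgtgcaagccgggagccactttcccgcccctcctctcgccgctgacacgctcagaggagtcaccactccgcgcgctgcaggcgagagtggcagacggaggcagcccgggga
UNC13A: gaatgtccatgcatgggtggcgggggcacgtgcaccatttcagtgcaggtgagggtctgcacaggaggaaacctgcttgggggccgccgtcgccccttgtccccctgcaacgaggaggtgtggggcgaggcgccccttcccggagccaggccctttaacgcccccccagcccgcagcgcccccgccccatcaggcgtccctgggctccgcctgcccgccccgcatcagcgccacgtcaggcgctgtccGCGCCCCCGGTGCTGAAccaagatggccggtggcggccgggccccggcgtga
A match describes these letters and not a bound site, and whether REST acts on any of the genes was not tested. The E-box CACGTG, which MYC proteins recognise, was in 2 of the 57 member promoters (3.51%) and in 2548 of all promoters (7.26%), and it does not overlap the RE1 letters. One of the 2 is the UNC13A promoter.

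Most members were lower in the libraries labelled SK-N-BE(2). In 34 of 42 the 6 libraries labelled SK-N-BE(2) all lay below the 6 labelled SK-N-AS, against 31.2% of the 20304 genes tested. In 4 (SYT4, VAMP1, SV2A and RIMS1) they all lay above, against 30.0% of genes tested. SYN3, SV2B, KIF5A and ELAVL2 overlapped. Since the members were selected on this contrast, nothing is read from these shares. The median log2 difference between the controls was -2.87 over the 40 members tested and -0.01 over all genes tested. Of the 40 members tested, 6 (15%) were lower by more than 8 on the log2 scale, as were 0.675% of all genes, and 15 (37.5%) by more than 5, as were 2.92% of all genes. In these counts a gene with 0 reads in SK-N-BE(2)-labelled controls stands at the bound that a floor of 3 reads over the group gives. In bulk RNA, fewer cells that express a gene and less of its RNA in each cell cannot be told apart.

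**Figure D1:**
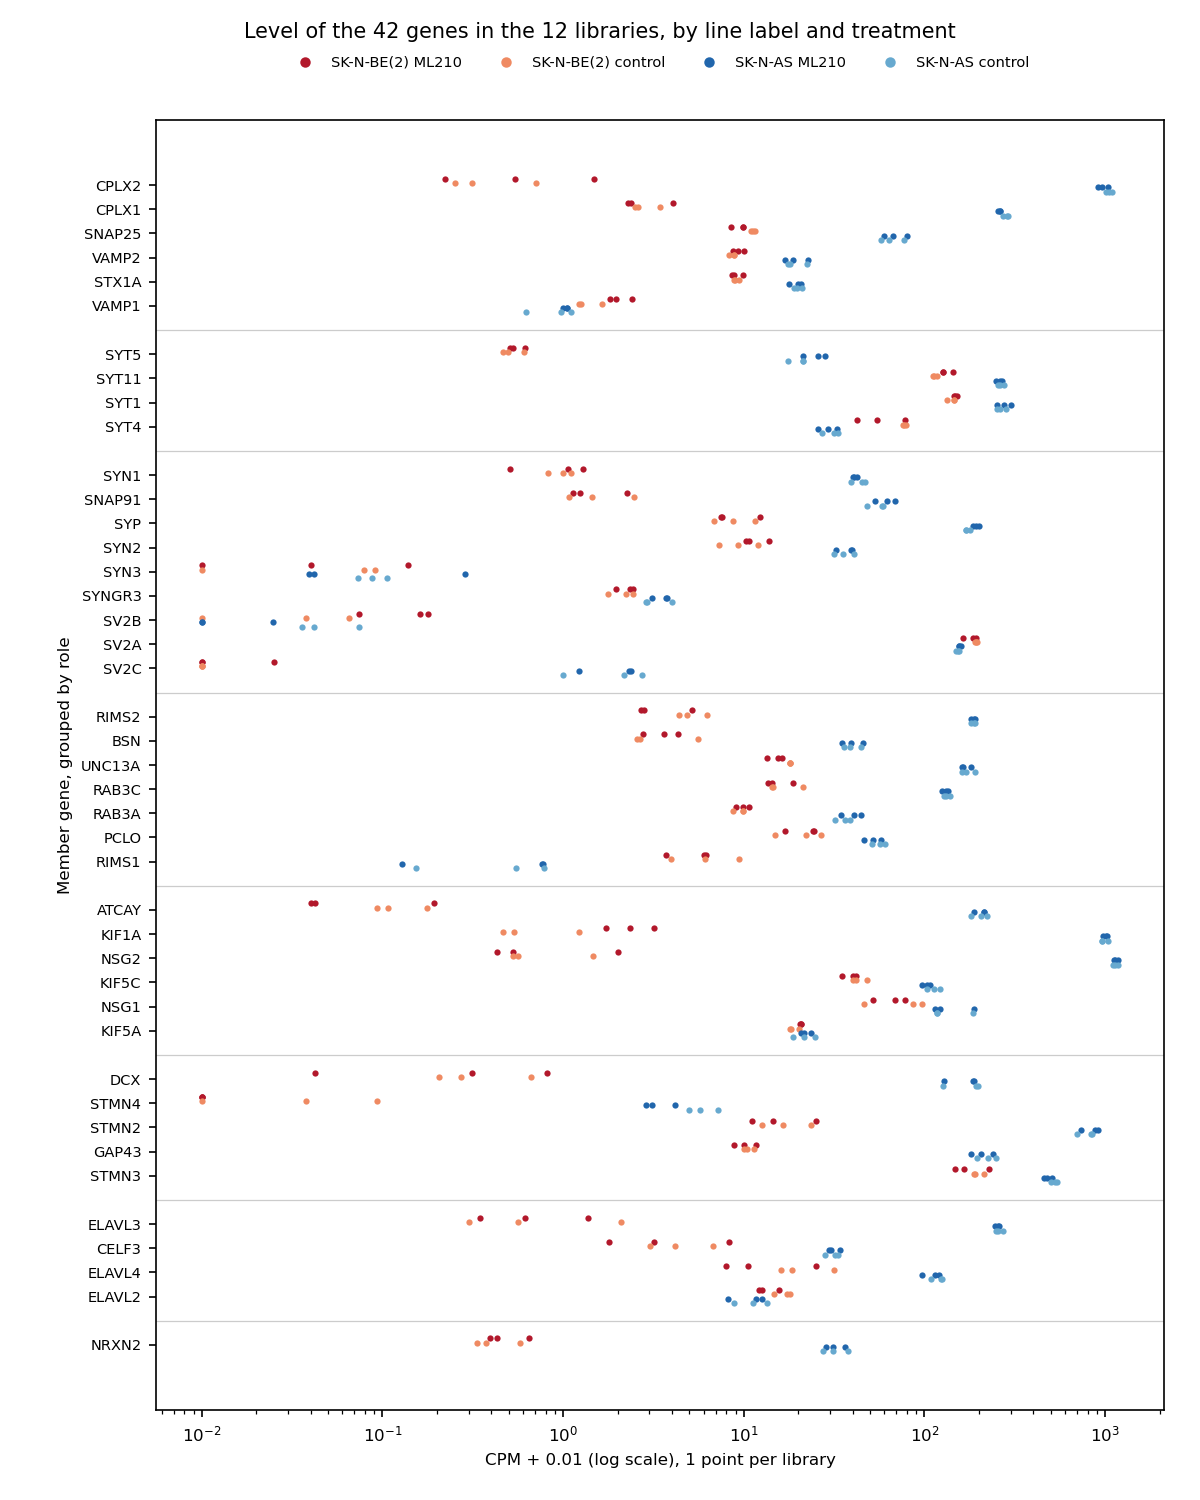
CPM of the 42 genes in each library on a log axis with 0.01 added, grouped by role, with red points for the label SK-N-BE(2) (dark for ML210, light for control) and blue points for the label SK-N-AS. The red and blue points are apart in 38 genes, 34 of them with red to the left, and the ML210 and control points of 1 label mostly lie together.

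The SNARE and complexin genes held the widest difference of all. CPLX2, a complexin that controls vesicle fusion (ENSG00000145920, chromosome 5, 175796310 to 175884020 on GRCh38), stood at 0.213, 0.53 and 1.47 CPM with ML210 and 0.243, 0.303 and 0.698 CPM in controls labelled SK-N-BE(2), against 1038, 964 and 914 CPM with ML210 and 1085, 1047 and 1005 CPM in controls labelled SK-N-AS (replicates 1, 2 and 3, as in all such lists). The highest library labelled SK-N-BE(2) held 1.47 CPM and the lowest labelled SK-N-AS 914 CPM, and the log2 difference between controls was -11.27. Its paralog CPLX1 was at 2.89 ± 0.986 CPM with ML210 and 2.83 ± 0.515 CPM in controls labelled SK-N-BE(2), against 260.3 ± 4.11 and 284 ± 9.43 CPM labelled SK-N-AS (SD, n = 3 each). SNAP25, the plasma membrane SNARE that pairs with syntaxin, averaged 11.2 ± 0.329 CPM in controls labelled SK-N-BE(2) and 66 ± 9.77 CPM in those labelled SK-N-AS.

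The remaining SNARE members differed far less. VAMP2, the synaptobrevin of most central synapses, averaged 8.66 ± 0.302 CPM in controls labelled SK-N-BE(2) and 19.3 ± 2.58 CPM in those labelled SK-N-AS. The neuronal syntaxin STX1A averaged 9.04 ± 0.299 and 19.9 ± 0.956 CPM. VAMP1, the synaptobrevin of motor nerve endings, ran the other way at 2.38, 1.81 and 1.96 CPM with ML210 and 1.64, 1.24 and 1.21 CPM in controls labelled SK-N-BE(2), against 1.04, 0.983 and 1.04 CPM with ML210 and 0.963, 1.09 and 0.616 CPM in controls labelled SK-N-AS. Its libraries labelled SK-N-BE(2) were all above those labelled SK-N-AS and none passed 2.38 CPM. Exons of VAMP1 share 339 bases with TAPBPL on the opposite strand and those of STX1A share 662 with BUD23. Both values are uncertain, since the strand setting of the counting was not given in the sources used here.

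Among the synaptotagmins, SYT1, the calcium sensor of fast release, was abundant in both labels. SYT1 stood at 151, 147 and 148 CPM with ML210 and 147, 133 and 145 CPM in controls labelled SK-N-BE(2), against 302, 275 and 253 CPM with ML210 and 282, 253 and 260.3 CPM in controls labelled SK-N-AS. The groups did not overlap between the labels, but the libraries labelled SK-N-BE(2) kept between 133 and 151 CPM. SYT11, a synaptotagmin that does not bind calcium, stood at 144, 127 and 126 CPM with ML210 and 117, 111 and 114 CPM in controls labelled SK-N-BE(2), against 249, 270.3 and 263 CPM with ML210 and 256, 262 and 275 CPM in controls labelled SK-N-AS. It was likewise lower in the libraries labelled SK-N-BE(2), with no overlap. SYT5 showed the widest gap of the 4, at 0.516, 0.498 and 0.607 CPM with ML210 and 0.487, 0.455 and 0.6 CPM in controls labelled SK-N-BE(2), against 21.4, 28.3 and 25.7 CPM with ML210 and 17.5, 21.1 and 21.2 CPM in controls labelled SK-N-AS. SYT4, another synaptotagmin with little calcium binding, was the exception, at 42.5, 54.3 and 78 CPM with ML210 and 77, 76.2 and 78.8 CPM in controls labelled SK-N-BE(2), against 25.8, 29.4 and 32.7 CPM with ML210 and 27.2, 33.2 and 31.4 CPM in controls labelled SK-N-AS. It was higher in every library labelled SK-N-BE(2) than in any labelled SK-N-AS, and 2 of the 3 ML210 libraries labelled SK-N-BE(2) lay well below the controls of that label.

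The vesicle membrane and coat genes ranged from near absence to slightly higher levels in the libraries labelled SK-N-BE(2). SV2C, a vesicle glycoprotein, had 1 read in the ML210 and 0 in the control libraries labelled SK-N-BE(2), against 368 and 383 reads labelled SK-N-AS. Its levels labelled SK-N-AS were 1.22, 2.3 and 2.38 CPM with ML210 and 0.989, 2.72 and 2.17 CPM in controls, lowest in batch 1 of both groups. Set against a floor of 3 reads over the group, SV2C was at least 134-fold lower in SK-N-BE(2)-labelled controls. The median over members stayed at -2.87 with SV2C at that bound. SV2A, the vesicle glycoprotein bound by the drug levetiracetam, stood at 164, 186 and 192 CPM with ML210 and 195, 191 and 194 CPM in controls labelled SK-N-BE(2), against 159.7, 155 and 155 CPM with ML210 and 154, 156 and 150.4 CPM in controls labelled SK-N-AS. All 6 libraries labelled SK-N-BE(2) exceeded the 6 labelled SK-N-AS, with a log2 difference between controls of only 0.33. SV2B, the third paralog, had between 1 and 26 reads in each group, and its highest library held 0.169 CPM.

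Synaptophysin, SYN1 and SYN2 were lower in the libraries labelled SK-N-BE(2) without being absent, while SYN3 overlapped between the labels. SYP, a major vesicle membrane protein used as a neuroendocrine marker, averaged 9.11 ± 2.74 CPM with ML210 and 8.99 ± 2.37 CPM in controls labelled SK-N-BE(2), against 193 ± 8.36 and 172 ± 4.78 CPM labelled SK-N-AS. SYN1, which tethers vesicles to the cytoskeleton and whose promoter is printed above, stood at 0.501, 1.06 and 1.28 CPM with ML210 and 0.811, 0.993 and 1.09 CPM in controls labelled SK-N-BE(2), against 40.5, 42.1 and 41 CPM with ML210 and 44.9, 47.1 and 39.1 CPM in controls labelled SK-N-AS. The SYN1 level in the highest library labelled SK-N-BE(2) was 1.28 CPM and in the lowest labelled SK-N-AS 39.1 CPM. SYN2 differed less, at 9.51 ± 2.37 CPM in controls labelled SK-N-BE(2) and 35.9 ± 4.49 CPM in those labelled SK-N-AS. SYN3 had 10 reads in each group labelled SK-N-BE(2) and 18 and 16 reads labelled SK-N-AS. SNAP91, a clathrin assembly protein of nerve terminals, had a log2 difference of -5.07, and the vesicle protein SYNGR3 one of -0.61.

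The active zone genes split within a single protein family. RIMS2, a RIM scaffold that links vesicles to calcium channels (ENSG00000176406, chromosome 8, 103500748 to 104256094), stood at 2.78, 2.7 and 5.18 CPM with ML210 and 4.82, 4.36 and 6.24 CPM in controls labelled SK-N-BE(2), against 190.1, 181 and 188 CPM with ML210 and 191, 182 and 187 CPM in controls labelled SK-N-AS. The highest library labelled SK-N-BE(2) held 6.24 CPM and the lowest labelled SK-N-AS 181 CPM. RIMS1, its paralog, was the member with the widest difference in the other direction (log2 3.77), at 3.69, 5.99 and 6.13 CPM with ML210 and 9.4, 6.08 and 3.96 CPM in controls labelled SK-N-BE(2), against 0.118, 0.763 and 0.749 CPM with ML210 and 0.143, 0.769 and 0.537 CPM in controls labelled SK-N-AS. The groups did not overlap, and within the label SK-N-AS both batch 1 libraries were low beside those of batches 2 and 3, as were those of PRRX1 and PTPRC. Whether these reads share a source was not tested.

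The other active zone members were lower in the libraries labelled SK-N-BE(2). UNC13A, which primes vesicles for fusion, stood at 13.4, 16.2 and 15.5 CPM with ML210 and 17.9, 18 and 18.1 CPM in controls labelled SK-N-BE(2), against 182, 162 and 161 CPM with ML210 and 170.5, 189.5 and 162 CPM in controls labelled SK-N-AS. The libraries labelled SK-N-BE(2) kept 13.4 to 18.1 CPM, so this priming factor was present in both labels. BSN and PCLO, the giant scaffolds bassoon and piccolo, had log2 differences of -3.45 and -1.40. RAB3A, the GTPase that marks synaptic vesicles, stood at 9.1, 9.86 and 10.7 CPM with ML210 and 9.87, 9.92 and 8.67 CPM in controls labelled SK-N-BE(2), against 34.4, 44.7 and 40.7 CPM with ML210 and 31.9, 36.2 and 38.9 CPM in controls labelled SK-N-AS. Its groups did not overlap, although 165 of its exon bases lie opposite MPV17L2. RAB3C had a log2 difference of -2.99.

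The axonal transport and endosome genes held 3 of the 6 members lower by more than 8 on the log2 scale. ATCAY, which encodes caytaxin, a partner of kinesin light chains in neurons, stood at 0.0304, 0.0321 and 0.184 CPM with ML210 and 0.0974, 0.166 and 0.0837 CPM in controls labelled SK-N-BE(2), against 187, 212 and 214 CPM with ML210 and 181, 221 and 205 CPM in controls labelled SK-N-AS. It was the lowest of the abundant members in the libraries labelled SK-N-BE(2), resting on 17 reads with ML210 and 24 in controls. KIF1A, the kinesin that carries synaptic vesicle precursors, stood at 3.17, 2.33 and 1.72 CPM with ML210 and 0.454, 0.524 and 1.21 CPM in controls labelled SK-N-BE(2), against 1025, 1014 and 971 CPM with ML210 and 965, 1034 and 959.5 CPM in controls labelled SK-N-AS. NSG2, a neuronal endosome protein that acts on AMPA receptors, stood at 0.516, 0.418 and 2.01 CPM with ML210 and 0.519, 0.552 and 1.45 CPM in controls labelled SK-N-BE(2), against 1181, 1127 and 1117 CPM with ML210 and 1181, 1138 and 1099 CPM in controls labelled SK-N-AS. For KIF1A the highest library labelled SK-N-BE(2) held 3.17 CPM and the lowest labelled SK-N-AS 959.5 CPM, and for NSG2 these were 2.01 and 1099 CPM. The NSG2 paralog NSG1 was at 68.3, 77.7 and 51.9 CPM with ML210 and 86.1, 96.3 and 46.4 CPM in controls labelled SK-N-BE(2), against 188, 122 and 114 and 186, 117 and 118 CPM labelled SK-N-AS. Its spread followed the batch: batch 3 was lowest in both groups labelled SK-N-BE(2), and batch 1 highest in both labelled SK-N-AS.

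The 2 conventional kinesins, which serve many cargoes, differed from each other. KIF5A, a neuronal heavy chain, stood at 20.6, 20.8 and 20.6 CPM with ML210 and 18.1, 18.2 and 20.2 CPM in controls labelled SK-N-BE(2), against 20.8, 23.6 and 21.6 CPM with ML210 and 18.8, 24.7 and 21.6 CPM in controls labelled SK-N-AS, and its groups overlapped. Its log2 difference between controls was -0.20 with TMM scaling and turned positive when libraries were scaled by their totals. KIF5C averaged 43.3 ± 4.42 CPM in controls labelled SK-N-BE(2) and 112 ± 9.01 CPM in those labelled SK-N-AS, a log2 difference of -1.38 without overlap.

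All 5 growth cone and microtubule genes were lower in the libraries labelled SK-N-BE(2) without overlap. STMN2, a stathmin of regrowing axons, stood at 11, 14.5 and 25 CPM with ML210 and 12.6, 16.4 and 23.7 CPM in controls labelled SK-N-BE(2), against 736, 909 and 874 CPM with ML210 and 698, 838 and 850.0 CPM in controls labelled SK-N-AS. It was the member with the highest level per kilobase of exon, at 355 CPM per kb with ML210 and 337 CPM per kb in controls labelled SK-N-AS. DCX, the microtubule protein doublecortin of migrating neurons, stood at 0.304, 0.0321 and 0.805 CPM with ML210 and 0.195, 0.262 and 0.656 CPM in controls labelled SK-N-BE(2), against 128, 185 and 187 CPM with ML210 and 127, 198 and 192 CPM in controls labelled SK-N-AS. STMN4, a brain stathmin, was at 0, 0 and 0 CPM with ML210 and 0, 0.0828 and 0.0279 CPM in controls labelled SK-N-BE(2), against 3.09, 4.14 and 2.85 and 4.98, 5.73 and 7.14 CPM labelled SK-N-AS. STMN3 differed least, at 148, 166 and 228 CPM with ML210 and 191, 189 and 214 CPM in controls labelled SK-N-BE(2), against 511, 474 and 458 CPM with ML210 and 543, 531 and 504 CPM in controls labelled SK-N-AS. GAP43, a growth cone membrane protein, averaged 10.2 ± 1.44 CPM with ML210 and 10.6 ± 0.696 CPM in controls labelled SK-N-BE(2), against 209 ± 29.4 CPM with ML210 and 223 ± 27.1 CPM in controls labelled SK-N-AS.

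The neuronal RNA-binding genes and the adhesion gene repeated the mixture. ELAVL3, the neuronal Hu protein HuC, stood at 0.608, 0.337 and 1.36 CPM with ML210 and 0.292, 0.552 and 2.09 CPM in controls labelled SK-N-BE(2), against 244, 257 and 256 CPM with ML210 and 250.1, 273 and 255 CPM in controls labelled SK-N-AS. The highest library labelled SK-N-BE(2) held 2.09 CPM and the lowest labelled SK-N-AS 244 CPM. ELAVL2, the Hu protein HuB, stood at 12.2, 12.6 and 15.8 CPM with ML210 and 17.9, 14.7 and 17.4 CPM in controls labelled SK-N-BE(2), against 8.15, 12.6 and 11.7 CPM with ML210 and 8.77, 11.2 and 13.4 CPM in controls labelled SK-N-AS, and the labels overlapped. ELAVL4 (HuD) averaged 22 ± 8.36 CPM in controls labelled SK-N-BE(2) and 119 ± 9.33 CPM in those labelled SK-N-AS. The splicing factor gene CELF3 averaged 4.64 ± 1.94 and 31.1 ± 2.71 CPM. NRXN2, a presynaptic neurexin, stood at 0.638, 0.418 and 0.381 CPM with ML210 and 0.325, 0.566 and 0.363 CPM in controls labelled SK-N-BE(2), against 28.6, 31 and 36.3 CPM with ML210 and 27.4, 37.8 and 31.1 CPM in controls labelled SK-N-AS. It was at most 0.638 CPM in the libraries labelled SK-N-BE(2) and at least 27.4 CPM in those labelled SK-N-AS.

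Where members belong to small families, the make-up of most families differed between the labels. Shares are of the family's summed CPM per kilobase of exon, as means over 3 libraries. In the ELAVL family, the widely expressed ELAVL1 held 85.3% ± 4.03 with ML210 and 81.8% ± 3.77 in controls labelled SK-N-BE(2), against 28.4% ± 1.65 and 28.8% ± 1.29 labelled SK-N-AS (SD, n = 3 each). ELAVL3 held 0.48% and 0.564% labelled SK-N-BE(2), against 53.6% and 52.6% labelled SK-N-AS. The level of ELAVL1 itself was similar, at 27.7 and 29.5 CPM per kb labelled SK-N-BE(2) against 28.1 and 29.8 labelled SK-N-AS. The ELAVL sum was 32.5 and 36.2 CPM per kb labelled SK-N-BE(2), against 99.1 and 104 labelled SK-N-AS. RIMS2 made up 38.5% ± 7.71 and 44.1% ± 14.0 of the RIM pair labelled SK-N-BE(2), against 99.7% in both groups labelled SK-N-AS, and the pair's sum was 0.673 and 0.884 CPM per kb against 13.7 in both groups labelled SK-N-AS. Among the synaptogyrins, the widely expressed SYNGR2 held 90.9% and 91.5% labelled SK-N-BE(2), against 43.3% and 45.2% labelled SK-N-AS, while the sum was similar, at 24.6 and 23.5 CPM per kb against 21.8 and 20.6.

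Stathmins and SNAP-25 relatives also differed in make-up. STMN1 itself was at 80.7 and 96.6 CPM per kb labelled SK-N-BE(2), against 93.7 and 103 labelled SK-N-AS. The stathmin sum was 147 and 169 CPM per kb labelled SK-N-BE(2), against 609 and 615 labelled SK-N-AS. STMN1, the stathmin of dividing cells, held 55.1% and 57.1% of the stathmins labelled SK-N-BE(2), where STMN2 held 4.69% and 4.37%. In the libraries labelled SK-N-AS, STMN1 held 15.4% and 16.8% and STMN2 held 58.3% and 54.6%. SNAP25 held 8.99% and 10.4% of its family labelled SK-N-BE(2), against 47.7% and 46.0% labelled SK-N-AS, where SNAP29 and SNAP47 of general membrane traffic were lower in share. The SV2 and KIF5 families kept their leader: SV2A held over 99% of its family in all groups, and KIF5B, the ubiquitous heavy chain, held 87.4% and 88.5% labelled SK-N-BE(2), against 79.4% and 80.1% labelled SK-N-AS.

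**Figure D2:**
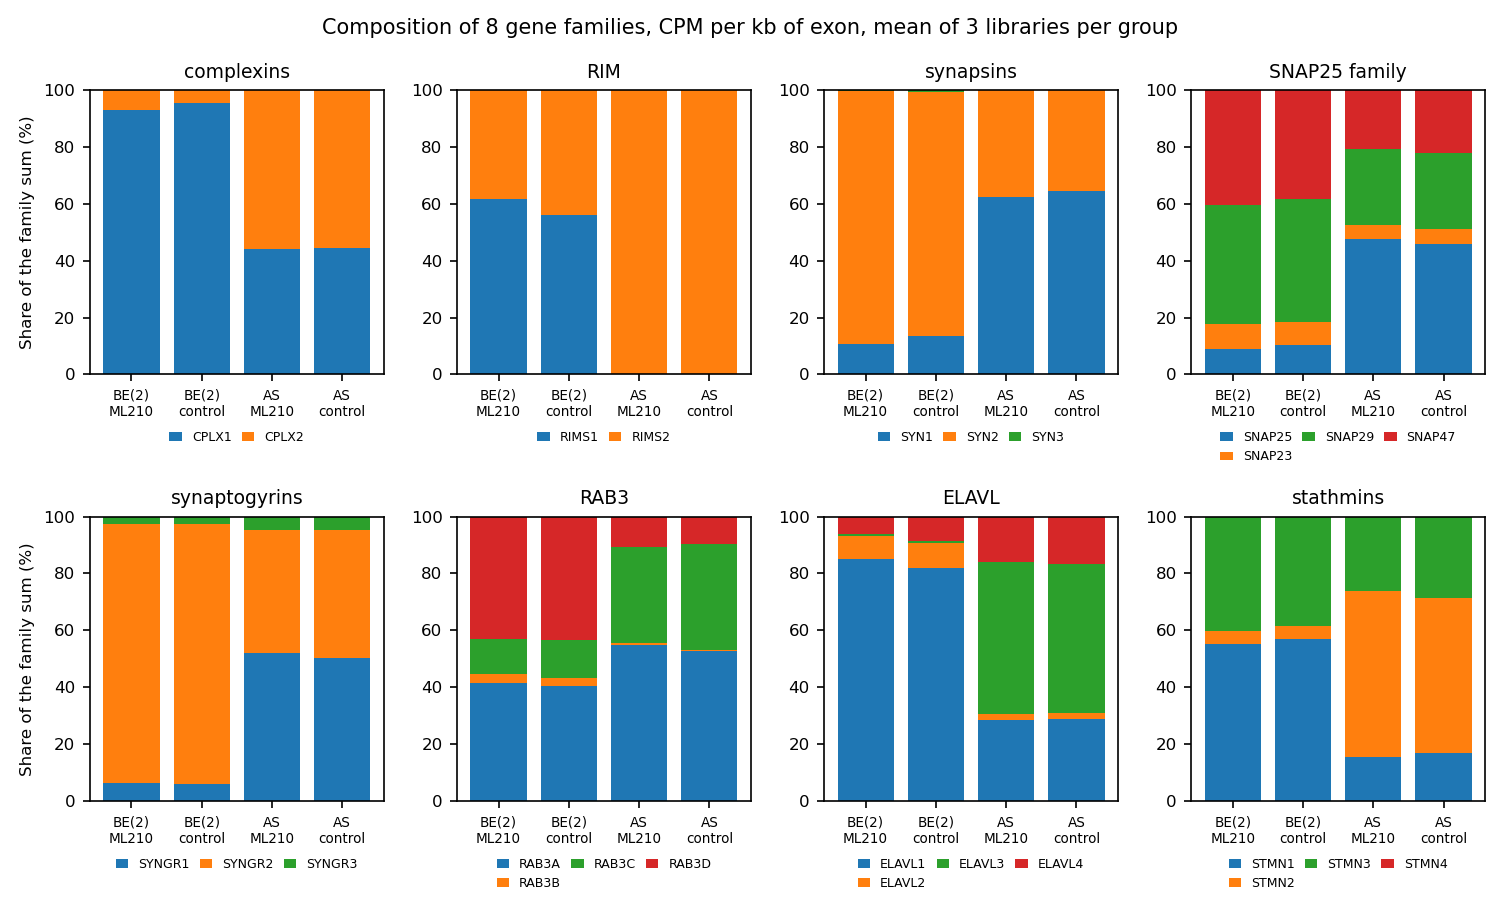
Share of each family's summed CPM per kilobase of exon held by each gene, as the mean of 3 libraries per group, with ML210 left of control and the label SK-N-BE(2) left of SK-N-AS. The bars of 1 label look alike with and without ML210, while ELAVL1, SYNGR2 and STMN1 lead their families labelled SK-N-BE(2) and ELAVL3, SYNGR1 and STMN2 lead them labelled SK-N-AS.

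Other genes of the same processes, none of them members, were counted the same way in SK-N-BE(2)-labelled controls, beside 35.2% of all genes tested called lower and 33.9% called higher. Of other neuronal RNA-binding genes, 9 of 12 were called lower and 3 higher (edgeR, Benjamini-Hochberg adjustment over all genes). CELF4, a neuronal splicing factor, had 6 reads with ML210 and 3 in controls labelled SK-N-BE(2), against 3962 and 3991 labelled SK-N-AS, while RBFOX3, the neuronal splicing factor NeuN, was higher by a log2 of 2.84 at a mean of 0.393 ± 0.115 CPM in controls labelled SK-N-BE(2). Of other synaptic adhesion genes, 11 of 15 were called lower and 3 higher, from LRRTM2 (log2 -6.26), a postsynaptic neurexin partner, to CNTNAP2 (5.50), a contactin-associated axonal protein. Growth cone and microtubule regulators gave 13 of 20 lower and 1 higher, with TAGLN3 at -8.00 and the kinesin adaptor FEZ1 at 1.06 (edgeR adjusted p = 0.0617). Axonal motor and cargo genes gave 12 of 20 lower and 5 higher, from the kinesin scaffold MAPK8IP2 (-4.62) to the endosomal kinesin KIF13A (4.63).

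Release genes outside the members also held calls in both directions. Other active zone and priming genes gave 9 of 19 lower and 3 higher. RPH3A, which encodes the RAB3 effector rabphilin, had 0 reads with ML210 and 2 in controls labelled SK-N-BE(2), against 31029 and 41223 labelled SK-N-AS. CADPS2, a priming factor of dense-core vesicles, was higher by 5.66. Other SNARE, complexin and synaptotagmin genes gave 12 of 23 lower and 11 higher, from DOC2B (-4.99), a calcium sensor of slow release, to the syntaxin STX3 (3.93). DOC2B varied by batch labelled SK-N-AS, at 2.32, 17.9 and 16.6 CPM with ML210 and 2.21, 18.1 and 16.7 CPM in controls. Other vesicle membrane and Rab genes gave 7 of 14 lower and 5 higher, from SVOP (-9.70) to RAB3IP (3.49). Vesicle endocytosis genes gave 9 of 17 lower and 5 higher, from STON2 (-8.10) to DNM3 (2.28).

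The widely expressed relatives of the members ran the other way, with 12 of 22 called higher and 4 lower. SYTL2, a synaptotagmin-like protein of secretory cells, was higher by 1.76, and SYT15 was the lowest at -0.84 (edgeR adjusted p = 0.159). Of 12 genes of the REST repressor complex, 9 were called higher and 2 lower, REST at one end (4.99) and the histone deacetylase HDAC2 at the other (-1.45). SRRM4, the neuronal splicing factor that alters REST transcripts, averaged 0.164 ± 0.168 CPM with ML210 and 0.309 ± 0.206 CPM in controls labelled SK-N-BE(2), against 37.3 ± 3.73 CPM with ML210 and 38.7 ± 1.03 CPM in controls labelled SK-N-AS. It belongs to the RNA-binding list and was named outside the rule for these lists. Its part in the REST levels was not tested. Scaling by library totals moved the median over all genes by 0.24 on the log2 scale and turned the calls over all genes to 8575 higher and 5550 lower, from 6893 and 7154 with TMM. With it, motor genes split 10 lower and 8 higher, growth cone genes 11 and 5, and active zone genes 9 and 5. The lists were drawn up with earlier results of these data known, and nothing particular to any of them is claimed from the counts.

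Summed markers of cell types also differed between the labels. The adrenergic and Schwann cell sums were lower labelled SK-N-BE(2), and the mesenchymal, epithelial and blood cell sums were higher. The 6 adrenergic neuroblastoma markers summed to 756 to 869 CPM with ML210 and 786 to 835 CPM in controls labelled SK-N-BE(2), against 2224 to 2319 CPM with ML210 and 2457 to 2505 CPM in controls labelled SK-N-AS. TH, the first enzyme of catecholamine synthesis, was at 0.372 ± 0.221 CPM in controls labelled SK-N-BE(2) and 292 ± 23.3 CPM in those labelled SK-N-AS, while the lineage factors HAND2 and GATA3 were at or above 142 CPM in every library. The 8 mesenchymal markers summed to 1989 to 2373 and 2330 to 2527 CPM labelled SK-N-BE(2), against 582 to 678 and 648 to 773 CPM labelled SK-N-AS. The 5 epithelial markers summed to 134.5 to 189 CPM with ML210 and 160.2 to 231 CPM in controls labelled SK-N-BE(2), against 7.75 to 10.45 CPM with ML210 and 10.0 to 14.0 CPM in controls labelled SK-N-AS. The 4 blood cell markers summed to 163 to 289 and 264 to 329.7 CPM labelled SK-N-BE(2), mostly PTPRC, against 1.61 to 3.12 and 1.54 to 3.46 CPM labelled SK-N-AS. The 6 Schwann cell markers stayed at or under 16.2 CPM, with SOX10 and CDH19 at 0 with ML210 and CDH19 at 0 in controls labelled SK-N-BE(2), and none of the 6 at 0 in either group labelled SK-N-AS. CD3E was at 0 in all groups but the controls labelled SK-N-AS. Single markers did not all follow their sum. Between the controls, 6 of 7 tested mesenchymal, 2 of 4 epithelial and 2 of 3 blood cell markers were called higher labelled SK-N-BE(2). In each of these lists 1 was called lower. All 6 adrenergic and 2 of 3 Schwann cell markers were called lower, beside 33.9% of all genes called higher and 35.2% lower. The part of cell state in the members' levels was not tested.

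With ML210, few members changed in the libraries labelled SK-N-BE(2). KIF1A rose and no other member passed the test, so that 1 of 40 was called higher and 0 lower, against 0.818% and 0.557% of all genes tested. The median log2 response was -0.02 over the members and 0 over all genes. KIF1A (ENSG00000130294, chromosome 2, 240713761 to 240821036) was at 3.17, 2.33 and 1.72 CPM with ML210 and 0.454, 0.524 and 1.21 CPM in controls. Every ML210 library exceeded every control library, and ML210 was higher within all 3 batches. The log2 change was 1.70 (SE 0.319, edgeR adjusted p = 0.0356), from 476 reads with ML210 against 153 in controls. Even so, KIF1A with ML210 stayed at 0.175% to 0.322% of its mean in the controls labelled SK-N-AS.

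The call of KIF1A depended on the fit. With batch as a replicate block the change was 1.67 (edgeR adjusted p = 0.0846). Leaving out 1 library at a time gave log2 changes from 1.43 to 2.26 and edgeR adjusted p from 0.00563 to 0.12, with the call kept only without ML210 replicate 3 or control replicate 3 labelled SK-N-BE(2). In the plot of 6 members by batch, control replicate 3 is the control nearest to the ML210 libraries.

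Under the replicate block, 4 other members were called. RIMS2 was lower with ML210 in each batch, at 2.78, 2.7 and 5.18 CPM against 4.82, 4.36 and 6.24 CPM in controls, and the groups overlapped through batch 3. Its log2 change was -0.52 without the block (edgeR adjusted p = 0.341) and -0.55 with it (edgeR adjusted p = 0.00475). ELAVL4 was also lower in each batch, at 7.93, 10.6 and 25.1 CPM with ML210 against 16.1, 18.4 and 31.6 CPM in controls. Its change was -0.60 without the block (edgeR adjusted p = 0.624) and -0.69 with it (edgeR adjusted p = 0.0057). In both genes the ML210 and control values of batch 3 are the highest of their group.

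SYT11 was higher with ML210 in each batch, at 144, 127 and 126 CPM against 117, 111 and 114 CPM in controls, without overlap. The change was small, 0.21 without the block (edgeR adjusted p = 0.102) and 0.21 with it (edgeR adjusted p = 0.0228). CPLX2 was at 0.213, 0.53 and 1.47 CPM with ML210 against 0.243, 0.303 and 0.698 CPM in controls, higher in 2 of 3 batches. Its change was 0.83 without the block (edgeR adjusted p = 0.653) and 0.82 with it (edgeR adjusted p = 0.0206), but -0.22 without ML210 replicate 3. All genes called went up to 1386 under the block, from 279 without it.

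**Figure D3:**
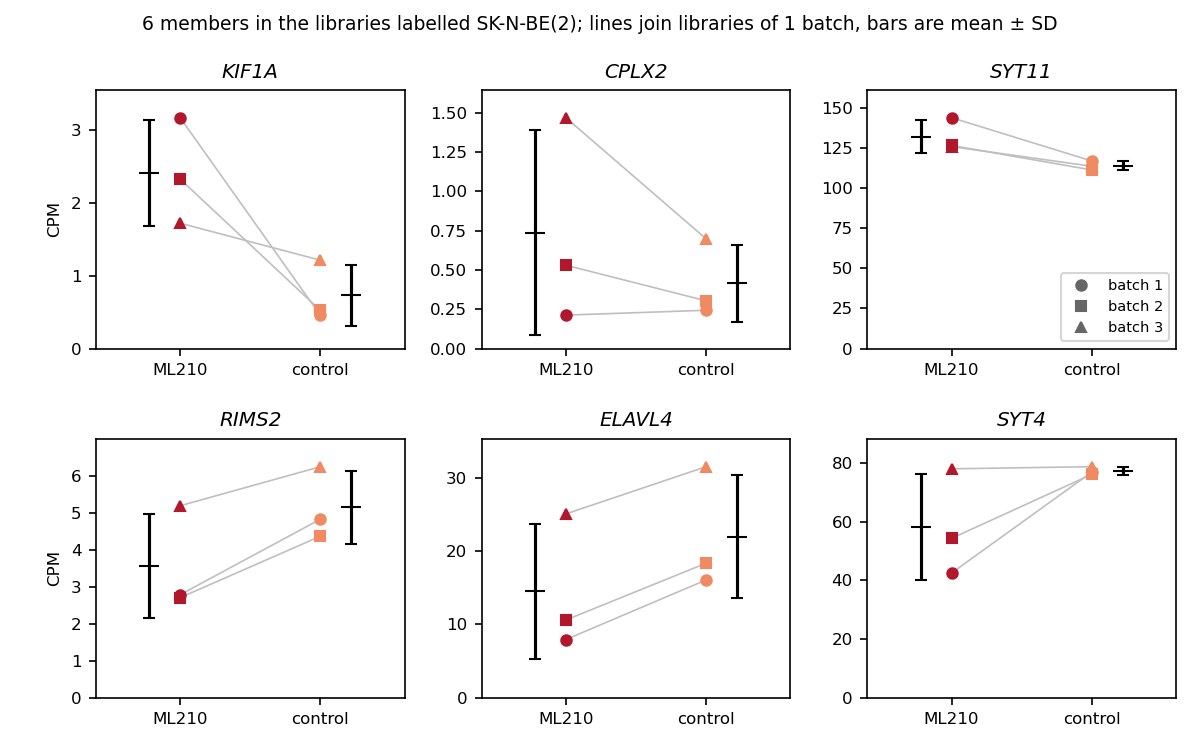
CPM of 6 members in the libraries labelled SK-N-BE(2), ML210 left and control right, with marker shapes for the batch, lines joining libraries of 1 batch and bars for mean ± SD (n = 3). KIF1A and SYT11 are higher with ML210 in all 3 batches, RIMS2, ELAVL4 and SYT4 are lower in all 3, and CPLX2 is higher in 2.

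Leaving out batch 3 changed the calls. Without ML210 replicate 3 labelled SK-N-BE(2), 5 members were called: KIF1A (log2 1.87), RIMS2 (-0.93), SYT4 (-0.70), STMN3 (-0.35) and ELAVL4 (-1.27), and all genes called came to 1242. SYT4 was at 42.5, 54.3 and 78 CPM with ML210 against 77, 76.2 and 78.8 CPM in controls, with replicate 3 of ML210 at the level of the controls. Without the 4 libraries of batch 3, a choice made after the data were seen, KIF1A, RIMS2, SYT4 and ELAVL4 were called, with edgeR adjusted p from 0.000438 to 0.0425, among 475 genes. Over the 19 alternatives to the fit, ELAVL4 and RIMS2 were called in 3 each and KIF1A in 6.

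Without adjustment, 7 members had a p under 0.05 for ML210 in the libraries labelled SK-N-BE(2), 3 of 40 higher and 4 of 40 lower, against 7.12% and 6.33% of all genes tested. Beside KIF1A, SYT11, RIMS2 and SYT4 they were UNC13A, VAMP1 and STMN4. UNC13A was at 13.4, 16.2 and 15.5 CPM with ML210 against 17.9, 18 and 18.1 CPM in controls (log2 -0.26, edgeR adjusted p = 0.141), below in each batch and without overlap. VAMP1 was at 2.38, 1.81 and 1.96 CPM with ML210 against 1.64, 1.24 and 1.21 CPM in controls (log2 0.59, edgeR adjusted p = 0.291). STMN4 had 0 reads with ML210 and 8 in controls, so its fitted log2 change is no measure of size.

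By role, the median log2 response labelled SK-N-BE(2) was 0.07 for SNARE and complexin genes and 0.07 for synaptotagmins. It was 0.02 for vesicle membrane genes, -0.10 for active zone genes and -0.01 for transport genes. It was -0.06 for growth cone genes and -0.33 for the 4 RNA-binding genes, all 4 of which were below 0 and none called. The REST gene itself was at 31.1, 29.9 and 29 CPM with ML210 against 36, 30.4 and 30.4 CPM in controls (log2 -0.10, edgeR adjusted p = 0.94).

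**Figure D4:**
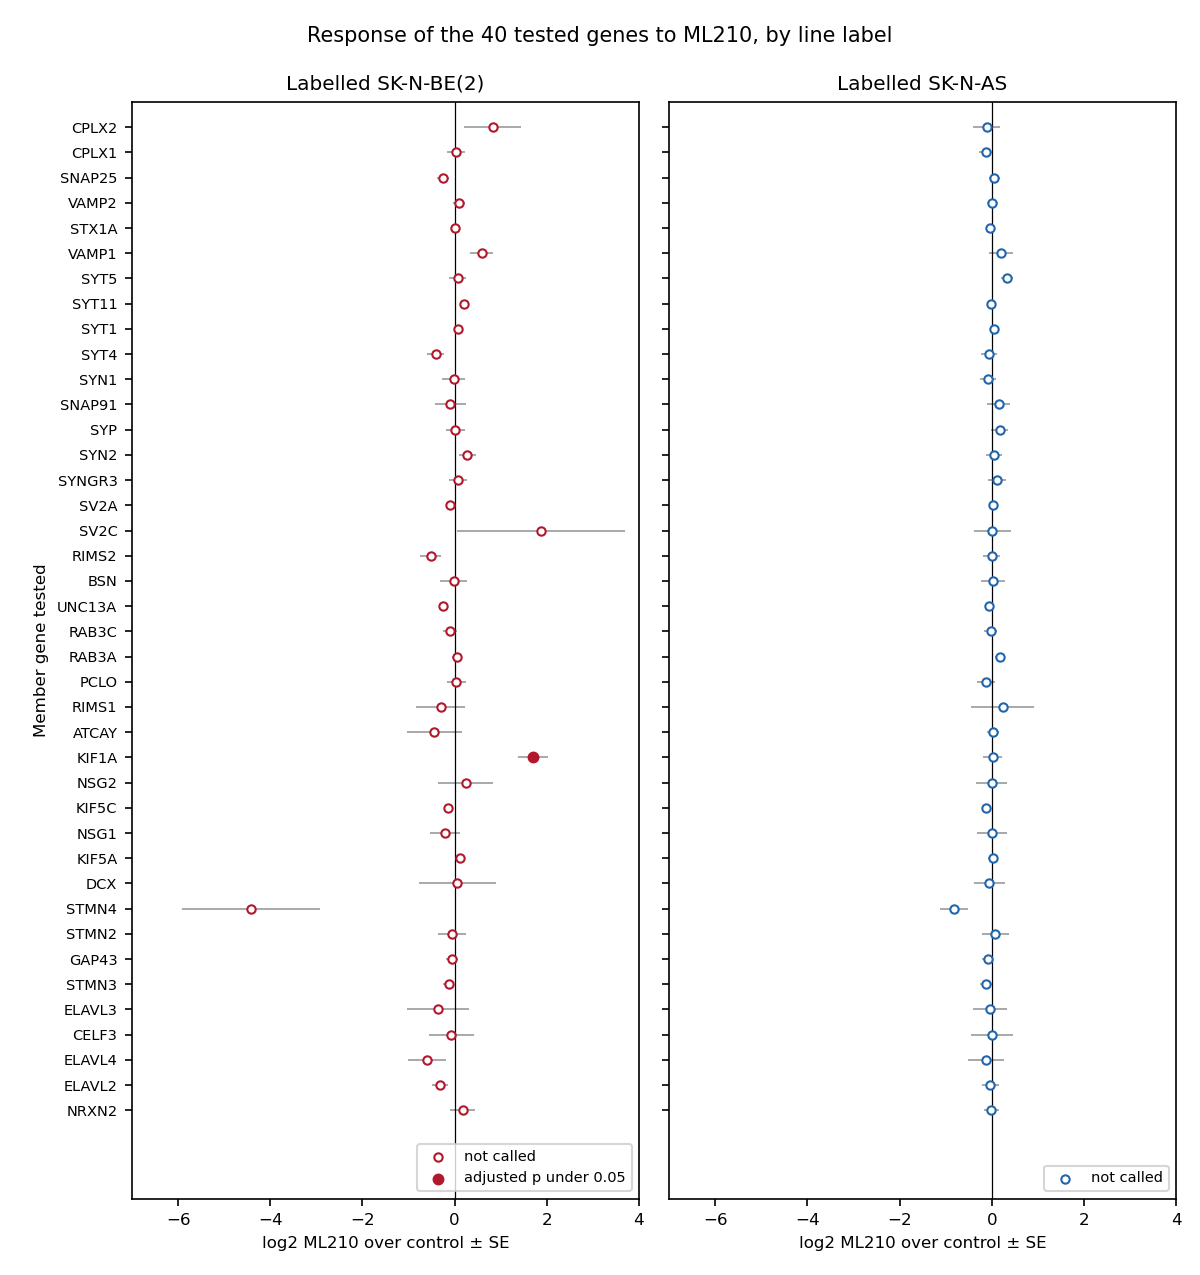
Log2 ML210 over control with its SE for the 40 members tested, labelled SK-N-BE(2) on the left and SK-N-AS on the right, with filled points for an edgeR adjusted p under 0.05. KIF1A is the 1 filled point, at 1.70, the members labelled SK-N-AS lie between -0.13 and 0.24 apart from STMN4 (-0.82) and SYT5 (0.33), and the wide bars of SV2C and STMN4 on the left rest on 1 and 8 reads.

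The 10 other lists hold 190 genes, not all of which were tested. Of these genes, 6 passed the test labelled SK-N-BE(2), beside 0.818% of all genes tested called higher and 0.557% lower. MAP1A, a microtubule-associated protein of mature axons and dendrites, was at 402, 298 and 207 CPM with ML210 against 129, 120.0 and 140.1 CPM in controls. It rose by a log2 of 1.22 (SE 0.211, edgeR adjusted p = 0.0272), without overlap. MAPT, which encodes tau, was at 23.5, 25.5 and 21.1 CPM with ML210 against 10.9, 13.1 and 14.3 CPM in controls and rose by 0.87 (edgeR adjusted p = 0.0136). BASP1, a growth cone membrane protein related in function to GAP-43, was at 169, 140.2 and 110.4 CPM with ML210 against 95.9, 88.5 and 83.1 CPM in controls and rose by 0.65 (edgeR adjusted p = 0.0479). These 3 of 20 growth cone and microtubule regulators were called higher and none lower, against 0.818% and 0.557% of all genes tested. None of the 5 members of that role was called. Since the lists were drawn up with earlier results of these data known, nothing is read from these counts. Over 19 alternatives MAPT kept its call in 18, MAP1A in 12 and BASP1 in 5.

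The other 3 changed less. The clathrin light chain CLTB was at 74.2, 68.1 and 56.8 CPM with ML210 against 52.3, 48.7 and 47.4 CPM in controls and rose by 0.42 (edgeR adjusted p = 0.021). STXBP5, tomosyn, which inhibits SNARE assembly, was at 62.7, 67.2 and 75 CPM with ML210 against 98, 94 and 99.9 CPM in controls (log2 -0.51, edgeR adjusted p = 0.023). The adhesion gene NCAM2 was at 7.55, 8.06 and 8.15 CPM with ML210 against 10.2, 10.3 and 12.4 CPM in controls (log2 -0.47, edgeR adjusted p = 0.0279). STXBP5 and NCAM2 fell in all 3 batches without overlap. Of the marker genes, PHOX2A, an adrenergic lineage factor, fell to 61.7, 85.8 and 92 CPM with ML210, against 117, 140.0 and 129.6 CPM in controls (log2 -0.69, edgeR adjusted p = 0.017). Over the 19 alternatives CLTB kept its call in 14, STXBP5 and PHOX2A in 15 each and NCAM2 in 12. No gene of the other active zone, vesicle membrane, motor and RNA-binding lists, the relatives or the REST complex was called labelled SK-N-BE(2).

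In the libraries labelled SK-N-AS, where most members were abundant, ML210 called none. The edgeR test called 0 of 40 members, against 0.0296% of all genes tested in either direction, and DESeq2 called 0 as well. Unadjusted, 1 of 40 was higher and 1 lower at p under 0.05, against 2.69% and 4.19% of all genes tested. The median log2 response was 0.01 over the members and -0.01 over all genes. SYT5 was at 21.4, 28.3 and 25.7 CPM with ML210 against 17.5, 21.1 and 21.2 CPM in controls, higher in each batch (log2 0.33, SE 0.125, edgeR adjusted p = 0.636). STMN4 was at 3.09, 4.14 and 2.85 CPM with ML210 against 4.98, 5.73 and 7.14 CPM in controls, lower in each batch and without overlap (log2 -0.82, SE 0.301, edgeR adjusted p = 0.636). RAB3A followed at 0.17 (edgeR adjusted p = 0.815). The abundant members moved little, KIF1A by 0.02 (SE 0.2), CPLX2 by -0.11 (SE 0.294) and NSG2 by 0.00 (SE 0.34). Apart from SYT5 and STMN4, every member's log2 response labelled SK-N-AS lay between -0.13 and 0.24.

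The difference of the responses, labelled SK-N-BE(2) minus SK-N-AS, passed the test in 0 of 40 members by edgeR and 0 by DESeq2, against 0.00493% of all genes. For KIF1A it was 1.67 (edgeR adjusted p = 0.499), so its rise is not shown to differ between the labels. Without the 4 libraries of batch 3 it was 2.45 (edgeR adjusted p = 0.0114), and without ML210 replicate 3 labelled SK-N-BE(2) RIMS2 was called instead (-0.94, edgeR adjusted p = 0.0119). The share of all genes called for the difference was counted only in the main fit, so nothing is read from these calls. Over all alternatives the edgeR and DESeq2 adjusted p for KIF1A ranged from 0.0114 to 0.828.

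Many members varied together by batch in the label SK-N-BE(2). In 19 of 40 members (47.5%) batch 3 was the highest of the 3 libraries in both groups labelled SK-N-BE(2), against 15.4% of all genes tested. In the label SK-N-AS, batch 3 was highest in both groups for 1 of 40 (2.5%), against 11.8% of all genes. Of the 19, 18 were lower in the libraries labelled SK-N-BE(2) without overlap, as were 34 of the 40 members tested, so the pattern is not shown to belong to the low members. The 19 were picked for this pattern, so their ratios above 1 labelled SK-N-BE(2) were set in advance, and nothing is read from the contrast. Their batch 3 level over the mean of batches 1 and 2 had a median of 1.74 with ML210 and 1.49 in controls labelled SK-N-BE(2), against 1.01 and 0.987 labelled SK-N-AS. DCX reached 4.79 and 2.87, NSG2 4.29 and 2.71, CPLX2 3.96 and 2.55 and ELAVL3 2.87 and 4.96 in the ML210 and control groups labelled SK-N-BE(2). Among members outside the 19, NSG1 was at 0.711 and 0.509, KIF1A at 0.626 and 2.48 and ATCAY at 5.88 and 0.637 in these groups.

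The pattern reached beyond the members. Of 123 tested genes in the other 7 neuronal lists, 38 (30.9%) were highest in batch 3 in both groups labelled SK-N-BE(2), against 4 of 12 REST complex genes (33.3%), 2 of 17 vesicle endocytosis genes (11.8%) and 1 of 22 widely expressed relatives (4.55%). DBH, the adrenergic enzyme that makes noradrenaline, was at 3.17, 3.77 and 6.47 CPM with ML210 and 3.18, 4.25 and 7.76 CPM in controls labelled SK-N-BE(2), with batch 3 highest in both, against 605, 544 and 535 and 636, 623 and 636 CPM labelled SK-N-AS. The adrenergic markers TH and PHOX2A did not share this. Labelled SK-N-BE(2), both were highest in batch 3 with ML210 but in batch 2 in controls. No count was made over the adrenergic markers. REST itself was not highest in batch 3 in either group labelled SK-N-BE(2).

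**Figure D5:**
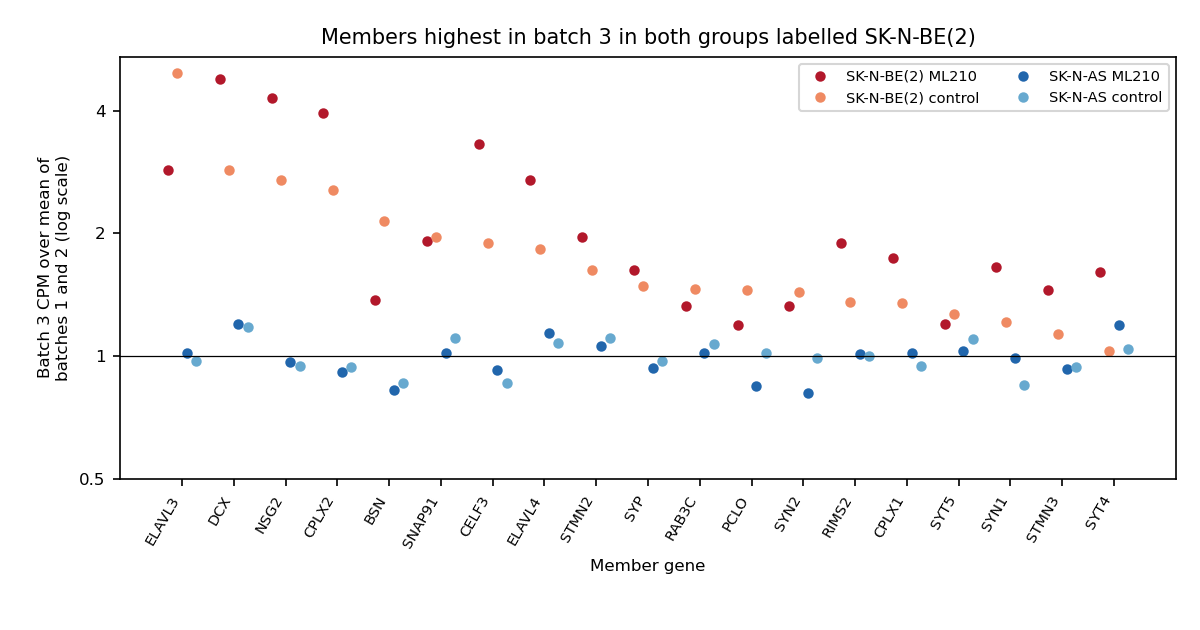
CPM in batch 3 over the mean of batches 1 and 2 for the 19 members that were highest in batch 3 in both groups labelled SK-N-BE(2), on a log axis, 1 point per group. The red points of the label SK-N-BE(2) lie above 1, by which the genes were picked, and the blue points of the label SK-N-AS lie from 0.814 to 1.2.

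The traces of abundant members in the libraries labelled SK-N-BE(2) differed from gene to gene. There were 9 members above 20 CPM in every library labelled SK-N-AS and under 3% of their SK-N-AS control mean in every library labelled SK-N-BE(2): CPLX1, CPLX2, SYN1, ATCAY, KIF1A, NSG2, DCX, ELAVL3 and NRXN2. Their median trace was 0.234%, 0.13% and 0.467% of that mean with ML210 and 0.113%, 0.152% and 0.38% in controls, batches 1 to 3. Within ML210 replicate 3 they ranged from 0.0909% for ATCAY to 2.94% for SYN1. MYCN, the most abundant of the genes compared, was at 0.00171% to 0.00675% in the same libraries, below each of the 9 members in each library. TH was at 0.0208% to 0.208%. The source of these traces was not tested.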

How the data were processed

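Messenger RNA of the 12 libraries was sequenced as stranded Illumina libraries, per the labels' protocols. The authors deposited raw counts for each gene. The submitters' processing notes name HISAT2 2.2.1, featureCounts 2.0.5, Trimmomatic 1.4 and FastQC, and the build GRCh38 (hg38). Neither the strand setting nor the annotation, multi-mapping or counting of pairs was given in the sources used here, so overlapping genes may share reads.

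Groups came from the titles, in which the replicate number equals the batch label. Symbols were matched to Ensembl identifiers by a table of gene names, and coordinates are on GRCh38. The fits were made in R 4.3.3 with edgeR 4.0.16 (filterByExpr by group, TMM scaling, robust quasi-likelihood, two-sided, Benjamini-Hochberg adjustment over 20304 genes, calls at an adjusted p under 0.05). All 12 libraries entered 1 fit with 8 residual degrees of freedom. CPM used TMM-scaled totals. On simulated counts for ML210 labelled SK-N-BE(2), with 20304 genes, 99% of 2-fold and 41% of 1.5-fold changes were recovered, with 7 false calls. The changed genes were drawn from those above a set level in SK-N-BE(2)-labelled controls, which KIF1A, CPLX2, NSG2, DCX, ELAVL3 and ATCAY did not reach. The simulation used 1 dispersion of 0.0223 and no batch effect. Recovery was therefore not measured for low members or for genes that vary by batch.

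Because the labels give same-numbered libraries a shared batch, the block pairs ML210 and control. Their deviations correlated at 0.096, 0.12 and 0.169 (batches 1 to 3, labelled SK-N-BE(2)) and at 0.357, 0.068 and 0.121 (labelled SK-N-AS). Pairs of different batches correlated at -0.1 to -0.007 labelled SK-N-BE(2) and at -0.269 to 0.189 labelled SK-N-AS. Deviations from a group's mean cancel over its 3 libraries, so positive same-batch values push those across batches down. The contrast is therefore partly built in. Labelled SK-N-AS, pairs across batches 2 and 3 reached 0.189 and 0.125, above the same-batch values of batches 2 and 3. Alternatives were other scalings, DESeq2 1.42.0, no filter, single libraries left out, the block and only the groups compared, plus leaving out batch 3, which was chosen after the data were seen.

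The members, their roles and the other lists were chosen with earlier results of these data known. Values in every library are given, for each role, for the most abundant member and those with the lowest and highest difference between controls, and for members called or with the 3 smallest p in an ML210 comparison. In the other lists the lowest, the highest and any called gene are named. Other members shown in full, such as NSG1, and those called only under an alternative were added after their values were seen. SRRM4 of the RNA-binding list and single marker genes such as DBH were also named outside this rule. A planned comparison of protein sequences was not made here. Of the cell type markers, 2 are not reported here and were left out of the summed levels.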

Additional observations from a re-analysis of the deposited data

How the results depend on the processing

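The members lower in the libraries labelled SK-N-BE(2) without overlap stayed between 34 and 35 under the scalings and omissions tried. The members were selected on this contrast, so nothing is read from that. The same count over all genes was made only in the main fit. The median log2 difference between controls over the 40 members tested, -2.87, lay from -3.09 to -2.55 when 1 library was left out and was -3.18 without batch 3. The members called with ML210 labelled SK-N-BE(2) numbered 1 in the main fit, 4 with the replicate block, 0 with only the 2 groups compared, 4 without batch 3 and from 0 to 5 with 1 library left out. KIF1A lost its call without the filter on low counts (edgeR adjusted p = 0.0574), where UNC13A (log2 -0.28, edgeR adjusted p = 0.0405) was called in its place. The difference of the responses called 1 member without batch 3 and from 0 to 1 with 1 library left out. How many of all genes it called in those fits was not counted. The median response of the members labelled SK-N-BE(2), -0.023, lay from -0.252 to 0.08 with 1 library left out. The median labelled SK-N-AS, 0.005, was 0.059 with library totals and lay from -0.056 to 0.018 with 1 library left out. Over all genes, the 279 calls labelled SK-N-BE(2) became 753 with DESeq2, 556 without the filter, 1386 with the replicate block, 51 with only the 2 groups and 475 without batch 3, and from 48 to 1242 with 1 library left out. The 6 calls labelled SK-N-AS became 49, 33, 38 and 21 under DESeq2, no filter, the replicate block and only the 2 groups, and from 3 to 13 with 1 library left out. No value called in the main fit changed sign. CPLX2, called with the replicate block at 0.82, was -0.22 without ML210 replicate 3 labelled SK-N-BE(2). The causes of these shifts were not tested. The block changed no call of a member labelled SK-N-AS. Depth limits the lowest members: SV2C, STMN4, ATCAY, DCX and CPLX2 labelled SK-N-BE(2) rest on 0 to 151 reads per group.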
